A study of Mus musculus with 6 samples.

Results

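The genes described here encode the lysosome of mouse bone marrow-derived macrophages, and comprise 10 cathepsins, 10 glycosidases, lipid enzymes and other luminal proteins, 6 membrane proteins, 15 subunits of the vacuolar proton pump (V-ATPase) and the 2 transcription factors Tfeb and Tfe3. They were chosen by gene symbol, and all 43 were found among the 55335 genes of the table. RNA was sequenced in 3 cultures that received conditioned medium with 4-octyl itaconate (CM + 4OI) and in 3 that received conditioned medium alone (CM). All 6 cultures were grown for 6 days from marrow of male wildtype C57BL/6 mice aged 6 to 8 weeks, and all were held for 4 h in medium, mixed 1:1, from pancreatic acinar cells that had been given 200 nM caerulein for 5 h. The CM + 4OI cultures also received 200 µM 4OI, a form of itaconate, the metabolite of activated macrophages, that carries an octyl group and enters cells. Caerulein, a peptide that drives acinar secretion to excess, induces pancreatitis in rodents. The labels call the replicates independent cultures and do not say whether they came from different mice. No culture without the medium is among the samples used here, so 4OI is seen only against that background.

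Lysosomes are acidic compartments in which hydrolases break down material taken up by phagocytosis or delivered by autophagy, and macrophages are rich in them. The V-ATPase acidifies the lumen, with a peripheral V1 sector that splits ATP and a membrane V0 sector that moves protons. TFEB and TFE3 enter the nucleus when lysosomes are stressed or nutrient signalling falls, and bind the CLEAR element found before many lysosomal genes. Itaconate has been described as an activator of TFEB in mouse macrophages.

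The samples carried the RNA of macrophages. All 10 macrophage markers were above 1 FPKM (fragments per kilobase, scaled to library size), and their summed level was 10946 to 11582 FPKM in CM + 4OI and 10859 to 11520 FPKM in CM. Lyz2 supplied most of it. Fibroblast and stromal markers summed to 13.5, 50.7 and 14.1 FPKM in CM + 4OI replicates 1, 2 and 3 and to 15.1, 81.1 and 12.0 FPKM in CM replicates 1, 2 and 3, so replicate 2 stood apart in both groups. Among 10 such markers 5 averaged at least 1 FPKM. The neutrophil list, with 4 of 8 markers at that level and Ly6g listed at 0, summed to 46.4 to 56.2 FPKM in CM + 4OI and 39.6 to 72.0 FPKM in CM. The 9 acinar markers summed to 7.38 to 12.7 FPKM in CM + 4OI and 6.12 to 10.4 FPKM in CM, and the dendritic cell, lymphocyte and mast cell lists to at most 1.11 FPKM in any library. In such bulk samples fewer cells of a type and less RNA per cell cannot be told apart. Depth was estimated at 22000000 to 25300000 fragments in CM + 4OI and 18000000 to 24500000 in CM.

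As a whole the lysosomal genes did not move in 1 direction with 4OI. Of 43 members 8 were higher, 6 were lower and 29 were not called (limma on log2(FPKM + 1), Benjamini-Hochberg adjusted p under 0.05). That is 32.6% of the members, against 32.5% of the 10468 genes tested. Over all of these genes 19.3% of genes were called higher and 13.2% lower. The median log2 fold change was 0.02 over the members and 0.06 over all tested genes. Groups did not overlap in 19 members, or 44.2%, against 49.0% of tested genes. Most differences were small, with a single member, Ctsc, past a log2 fold change of 1 in size, and 21 of the 29 members that were not called under 0.1. Of the 14 called members 7 kept their call and direction in all 15 alternatives: Lipa, Atp6v0a1, Npc1 and Atp6v1h, which were higher, and Ctsc, Lamp2 and Atp6v1d, which were lower. Without replicate 2 of both groups, where stromal markers were high, these 7 were the called members, 4 higher and 3 lower, against 10.4% and 9.67% of tested genes. Median-of-ratios scaling of the libraries gave 4 higher and 7 lower members, against 13.1% higher and 16.2% lower among all tested genes. Of all calls 44.7% were then higher, against 59.3% with FPKM as deposited.

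**Figure D1:**
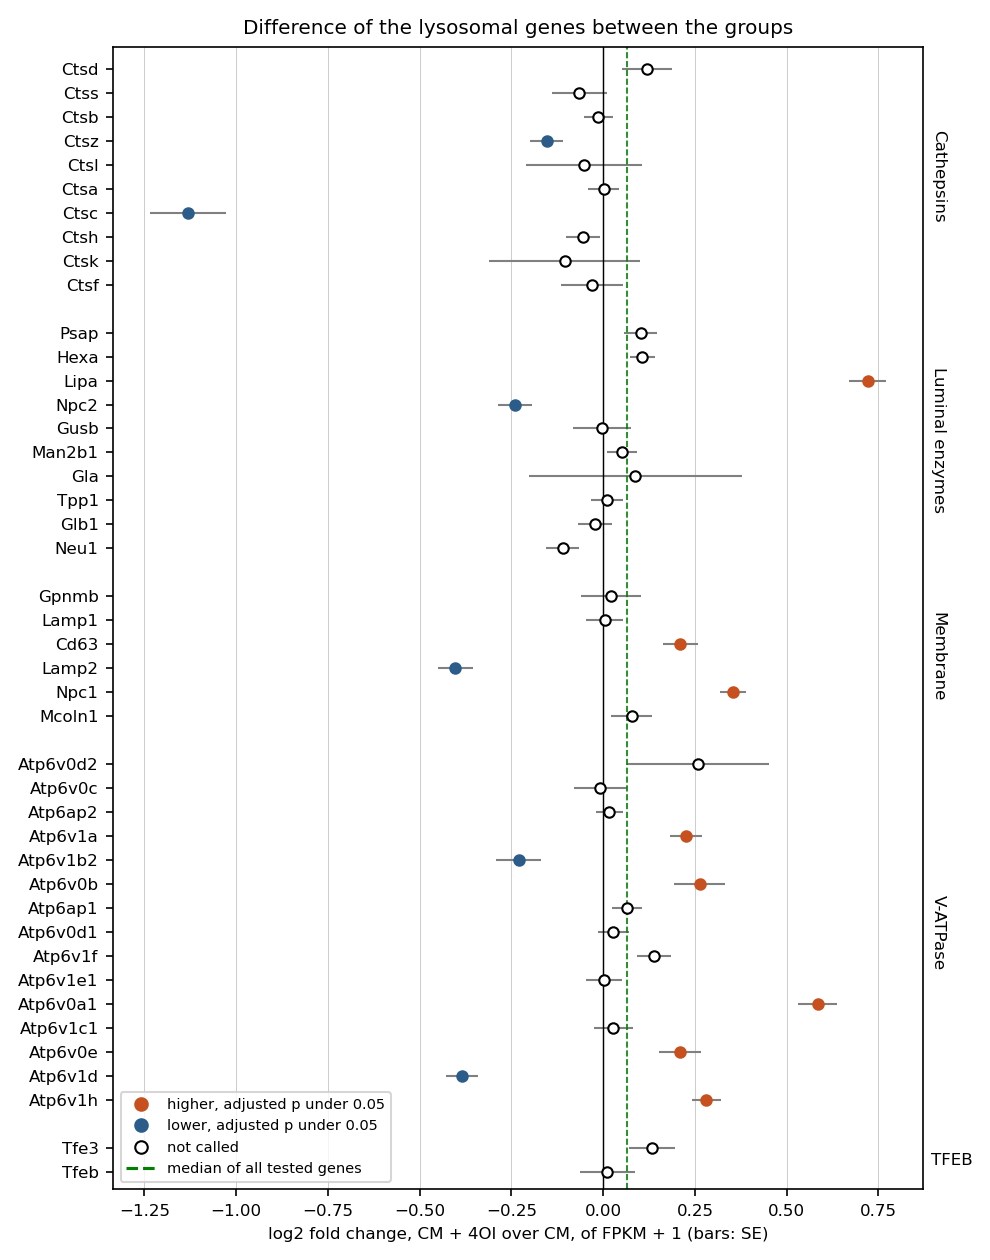
Log2 fold change of FPKM + 1, CM + 4OI over CM, for each of the 43 lysosomal genes by class, with bars of 1 SE; filled points passed an adjusted p under 0.05 and the dashed line is the median of all 10468 tested genes. Lipa and Atp6v0a1 lie farthest to the right and Ctsc farthest to the left, while most genes sit near 0.

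The lysosomal transcripts were abundant and their total differed little between the groups. Levels per length ran from 1.36 FPKM for Ctsf to 5046 FPKM for Psap over the 6 libraries, and 30 of 43 members lay above the 90th percentile of the tested genes. Summed over the members, FPKM was 20990, 21468 and 22410 in CM + 4OI replicates 1, 2 and 3, against 20164, 21055 and 21835 in CM replicates 1, 2 and 3. These sums made up 7.06% to 7.55% of all FPKM in CM + 4OI and 6.99% to 7.50% in CM, and the groups overlapped. Psap, Ctsd, Ctss, Ctsb and Gpnmb carried 79.4% of the sum, so it says little about the remaining members. By class the sums were 11097 ± 394 FPKM in CM + 4OI and 11078 ± 602 FPKM in CM for the cathepsins, and 6478 ± 152 FPKM in CM + 4OI and 6006 ± 30.2 FPKM in CM for the luminal proteins. They were 3013 ± 163 FPKM in CM + 4OI and 2970.5 ± 177 FPKM in CM for the membrane proteins, and 1017 ± 44.8 FPKM in CM + 4OI and 948 ± 40.8 FPKM in CM for the V-ATPase (SD over 3 cultures, as for every mean below). Differences between sums were not tested.

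**Figure D2:**
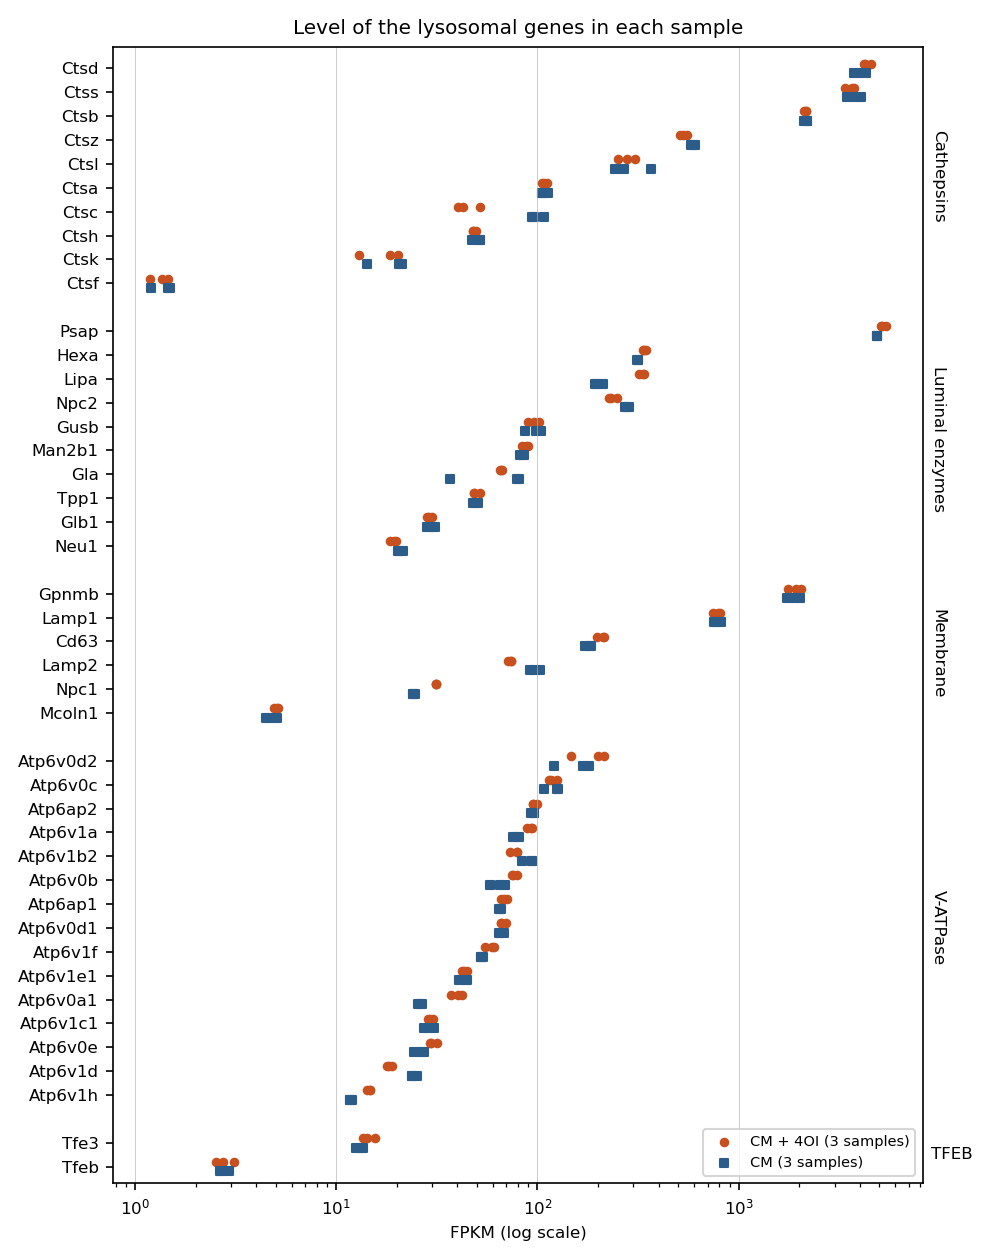
FPKM of each of the 43 genes in each sample on a log axis, circles for CM + 4OI and squares for CM, ordered by class and mean level. Levels differ widely within a class, from Ctsf at 1.36 to Ctsd at 4167 FPKM among the cathepsins, and for most genes the groups lie on top of each other.

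Cathepsins are the main proteases of the lysosome. Of the 10 measured, 2 fell with 4OI, 0 rose and 8 were not called, and their median log2 fold change was -0.05. The share called was 20%, against 32.5% of all tested genes. Ctsc encodes dipeptidyl peptidase I, which removes dipeptides and activates the serine proteases of leukocyte granules (ENSMUSG00000030560, chromosome 7, 88278085 to 88310888, plus strand, mm10). It stood at 51.8, 40.3 and 42.5 FPKM in CM + 4OI replicates 1, 2 and 3, against 108, 95.6 and 93.6 FPKM in CM replicates 1, 2 and 3. All 3 CM + 4OI cultures were far below all 3 CM cultures. The means were 44.9 ± 6.15 FPKM in CM + 4OI and 99.0 ± 7.74 FPKM in CM, 2.21-fold lower with 4OI. The log2 fold change was -1.13 (SE 0.10; adjusted p = 4.39e-04, limma). Ctsz, the carboxypeptidase cathepsin Z, had 529, 511 and 555 FPKM in CM + 4OI and 589.6, 578 and 607 FPKM in CM. Its groups did not overlap, but the step was 1.11-fold downwards and the call was marginal (log2 fold change -0.15, SE 0.046, limma adjusted p = 0.0436). The call was lost on leaving out any single library, with adjusted p between 0.0511 without CM + 4OI replicate 3 and 0.142 without CM + 4OI replicate 2. The values without CM replicates 1, 2 and 3 and CM + 4OI replicate 1 were 0.0868, 0.0646, 0.129 and 0.0975. The number of cathepsins that fell was then 1. Under quantile normalization the log2 fold change of Ctsz was 0.065, with the sign turned and no call (adjusted p = 0.279).

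The most abundant cathepsins were not called. Ctsd, the aspartic protease cathepsin D, had 4212, 4239 and 4559.9 FPKM in CM + 4OI and 3724, 3982 and 4283 FPKM in CM. The groups overlapped, yet each CM + 4OI culture was above the CM culture of the same number. Its limma adjusted p was 0.222, and 0.0274 once the replicate number entered as a block, for the same log2 fold change of 0.12. With the block and median-of-ratios scaling together it was 0.04 (adjusted p = 0.218). Ctss, cathepsin S, which trims the invariant chain of MHC class II, had 3358, 3658 and 3746 FPKM in CM + 4OI and 3447, 3784 and 4038 FPKM in CM (adjusted p = 0.554). Each CM + 4OI culture was below the CM culture of the same number, and the adjusted p was 0.0929 with the block and 0.00982 with the block and median-of-ratios scaling together, at a log2 fold change of -0.14. Quantile normalization gave it a log2 fold change of -0.43 (adjusted p = 2.80e-05). Ctsb, cathepsin B, a broad endopeptidase, stood at 2143 ± 23.4 FPKM in CM + 4OI and 2163 ± 40.4 FPKM in CM (adjusted p = 0.824, and 0.00849 with quantile normalization). The block and median-of-ratios scaling together gave it a log2 fold change of -0.09 (limma adjusted p = 0.0251). In that fit 5 of the 10 cathepsins were called lower and 0 higher, against 1920 lower and 1529 higher of the 10468 tested genes. Ctsa, the carboxypeptidase that protects beta-galactosidase and sialidase, was at 108 ± 2.75 FPKM in CM + 4OI and 108 ± 3.91 FPKM in CM. Ctsh, an aminopeptidase, was at 48.3 ± 0.798 FPKM in CM + 4OI and 50.3 ± 2.42 FPKM in CM. Ctsf, cathepsin F, was the lowest member, at 1.34 ± 0.139 FPKM in CM + 4OI and 1.39 ± 0.158 FPKM in CM. Exons of Ctsa (10.5% of their length, with Pltp at 112 FPKM) and of Ctsb (12.8%, with Fdft1) overlap genes on the other strand, and 34.4% of the exon length of Ctsd lies in a predicted gene on its own strand (Gm49369, 0.0457 FPKM), so reads may be mixed.

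Among the 10 luminal proteins that handle glycans, lipids and peptides, Lipa rose, Npc2 fell and 8 were not called. The share called was 20%, against 32.5% of all tested genes. Lipa encodes lysosomal acid lipase, which frees cholesterol and fatty acids from lipoprotein lipids (ENSMUSG00000024781, chromosome 19, 34492318 to 34527474, minus strand). It reached 319, 339.7 and 336 FPKM in CM + 4OI replicates 1, 2 and 3, against 193, 197 and 212 FPKM in CM replicates 1, 2 and 3. The lowest CM + 4OI culture was well above the highest CM culture. Lipa averaged 332 ± 11.0 FPKM in CM + 4OI and 201 ± 9.86 FPKM in CM, 1.65-fold higher. In log2 terms the difference was 0.72 (SE 0.050, limma adjusted p = 1.44e-04). This was the highest log2 fold change of the 43 members. Npc2, which binds the freed cholesterol in the lumen and passes it to Npc1, had 249, 226 and 233 FPKM in CM + 4OI and 284, 273 and 279 FPKM in CM. Every CM + 4OI culture was below every CM culture, at a log2 difference of -0.24 (SE 0.047, limma adjusted p = 0.00993), and the call was lost without replicate 2 of both groups (adjusted p = 0.0649).

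Psap, the precursor of the saposins that present sphingolipids to their hydrolases, was the most abundant member, with 5168, 5120.0 and 5388 FPKM in CM + 4OI and 4894, 4841 and 4866 FPKM in CM. Hexa, the alpha chain of beta-hexosaminidase, had 345, 337 and 335 FPKM in CM + 4OI and 312, 316 and 317 FPKM in CM. In both genes the CM + 4OI cultures were all higher, 1.07-fold and 1.08-fold by the means, without passing the threshold (limma adjusted p = 0.126 and 0.0553). Both passed it with the replicate number as a block (adjusted p = 0.0295 and 0.0339), but not when median-of-ratios scaling was added to the block, where the log2 fold changes were 0.03 and 0.03 (adjusted p = 0.426 and 0.377). Neu1, the lysosomal sialidase, was at 19.2 ± 0.697 FPKM in CM + 4OI and 20.8 ± 0.611 FPKM in CM, with non-overlapping groups and an adjusted p of 0.109, or 0.0376 with median-of-ratios scaling. Beta-galactosidase (Glb1), alpha-mannosidase (Man2b1) and tripeptidyl peptidase (Tpp1) had log2 fold changes of -0.02, 0.05 and 0.01, with adjusted p-values between 0.384 and 0.888. Beta-glucuronidase (Gusb) was at 95.7 ± 5.64 FPKM in CM + 4OI and 96.1 ± 8.98 FPKM in CM (adjusted p = 0.979).

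Gla, alpha-galactosidase A, was set apart by 1 library. It had 64.8, 66.2 and 66.8 FPKM in CM + 4OI replicates 1, 2 and 3 and 36.9, 80.9 and 79.5 FPKM in CM replicates 1, 2 and 3. CM replicate 1 was thus far below the other CM cultures, while the CM + 4OI cultures lay close together. With all libraries the log2 fold change was 0.09 (SE 0.29, limma adjusted p = 0.846). Without CM replicate 1 it was -0.28 (SE 0.039, adjusted p = 0.00618), a call in the other direction.

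Of the 6 membrane proteins 2 rose, 1 fell and 3 were not called, 50% called against 32.5% of all tested genes. Npc1, the membrane protein that exports cholesterol from the lysosome (ENSMUSG00000024413, chromosome 18, 12189692 to 12236400, minus strand), had 31.5, 31.2 and 31.4 FPKM in CM + 4OI and 24.8, 24.2 and 24.0 FPKM in CM. The cultures of each group lay within 1 FPKM of each other and the groups were far apart, by 0.35 on the log2 scale (SE 0.035, limma adjusted p = 6.05e-04). Npc1 and Npc2, which act in sequence on cholesterol, thus differed in opposite directions. Lamp2, a heavily glycosylated protein of the lysosomal membrane that is needed for fusion with autophagosomes (ENSMUSG00000016534, chromosome X, 38401357 to 38456454, minus strand), had 73.6, 71.7 and 73.9 FPKM in CM + 4OI, against 96.3, 92.3 and 102 FPKM in CM. It was 1.33-fold lower with 4OI (log2 fold change -0.40, SE 0.048, limma adjusted p = 0.00122). Its paralog Lamp1 had 793, 748 and 809 FPKM in CM + 4OI and 773, 754 and 815 FPKM in CM, with overlapping groups (adjusted p = 0.956). Whether the splice forms of Lamp2 differed cannot be read from gene values.

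Cd63, a tetraspanin of late endosomes and exosomes, had 198, 211 and 215 FPKM in CM + 4OI and 173, 181 and 184 FPKM in CM. It was 1.16-fold higher with 4OI (log2 fold change 0.21, SE 0.048, limma adjusted p = 0.0175). The call was lost with median-of-ratios scaling (adjusted p = 0.0819), without CM replicate 1 (0.0502), without CM + 4OI replicates 2 (0.0649) or 3 (0.0652), and without replicate 2 of both groups (0.110). A processed copy, Cd63-ps, is listed at a mean of 37.1 FPKM and can share reads with it. Gpnmb, a transmembrane glycoprotein of lysosome-rich macrophages, had 1756, 1933 and 2049 FPKM in CM + 4OI and 1731, 1898 and 2024 FPKM in CM (adjusted p = 0.866). Mcoln1, a calcium channel of the TRPML family, was at 5.04 ± 0.117 FPKM in CM + 4OI and 4.73 ± 0.297 FPKM in CM (adjusted p = 0.338).

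**Figure D3:**
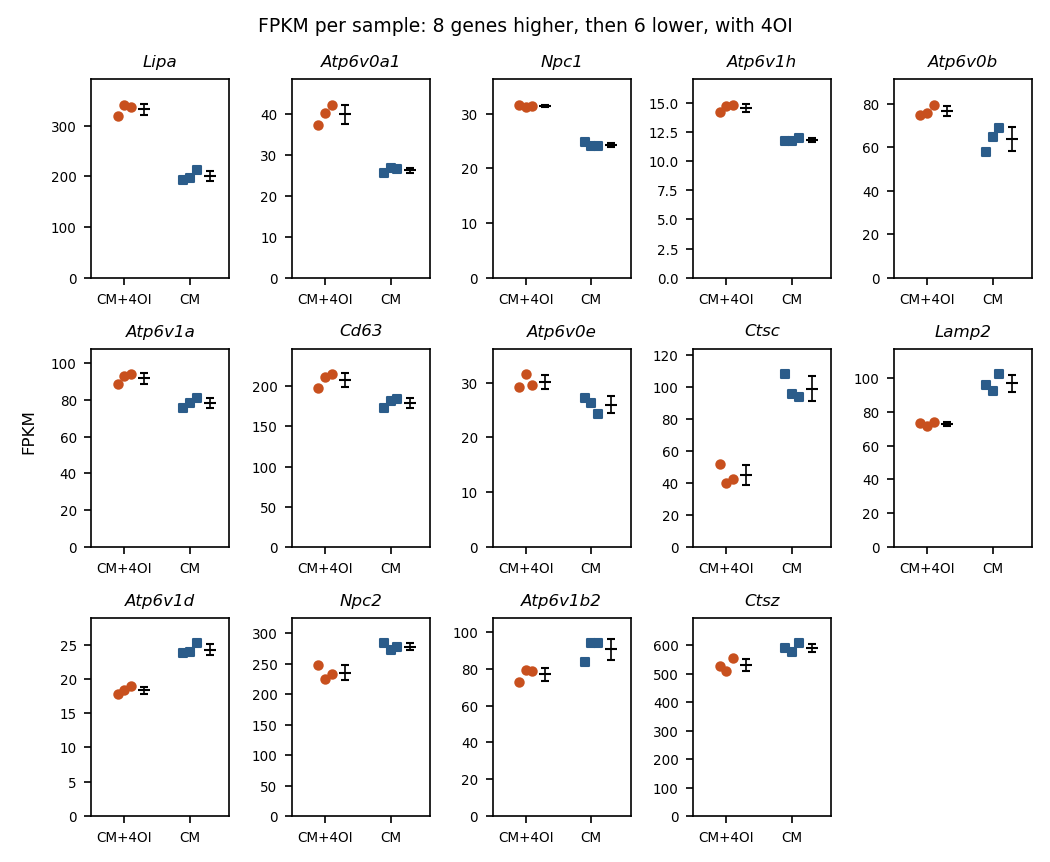
FPKM of the 14 called genes, 1 panel each with an axis from 0; points are the 3 samples of CM + 4OI (left) and of CM (right), and the bar beside them is the mean with SD. In each panel the groups do not overlap, and the widest relative gap is that of Ctsc, at 44.9 ± 6.15 FPKM in CM + 4OI and 99.04 ± 7.74 FPKM in CM.

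Of the 15 V-ATPase genes 5 were higher, 2 lower and 8 not called, 46.7% called against 32.5% of all tested genes. Median-of-ratios scaling left 2 higher and 2 lower, and leaving out CM replicate 2, CM + 4OI replicate 1 or CM + 4OI replicate 3 each left 3 higher and 1 lower. Quantile normalization gave 7 higher and 1 lower, and the replicate number as a block 6 higher and 2 lower. Their median log2 fold change was 0.06, as over all tested genes. Of the 6 members of the V0 sector 3 rose and 0 fell, against 19.3% higher and 13.2% lower among all tested genes. The rises of Atp6v0b and Atp6v0e were not called with median-of-ratios scaling. Atp6v0a1, the a1 isoform of the subunit that carries the proton path (ENSMUSG00000019302, chromosome 11, 101009452 to 101063719, plus strand), had 37.3, 40.2 and 42.0 FPKM in CM + 4OI replicates 1, 2 and 3, against 25.5, 26.7 and 26.4 FPKM in CM replicates 1, 2 and 3. It was 1.52-fold higher, with a wide gap between the groups (log2 fold change 0.58, SE 0.053, limma adjusted p = 4.09e-04). Tcirg1, which encodes the a3 isoform of the same subunit and belongs to a second list of pump genes, had 135, 130.4 and 135 FPKM in CM + 4OI and 170.1, 159 and 164 FPKM in CM. It was lower with 4OI (log2 fold change -0.30, SE 0.041, limma adjusted p = 0.00238). Tcirg1 remained the more abundant of the pair per length in both groups.

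Atp6v0b, a proteolipid of the membrane ring, had 75.0, 75.6 and 79.2 FPKM in CM + 4OI and 57.8, 64.9 and 68.9 FPKM in CM (log2 fold change 0.26, SE 0.069, limma adjusted p = 0.0285). Atp6v0e, the small subunit e, had 29.2, 31.5 and 29.6 FPKM in CM + 4OI and 27.3, 26.3 and 24.2 FPKM in CM (log2 fold change 0.21, SE 0.057, adjusted p = 0.0329). Both were higher in all CM + 4OI cultures than in any CM culture, but neither call held with median-of-ratios scaling (adjusted p = 0.0877 and 0.123). Without CM replicate 2 and CM + 4OI replicates 1, 2 and 3 in turn, the adjusted p of Atp6v0b was 0.0554, 0.0584, 0.0720 and 0.0900. For Atp6v0e it was 0.0629, 0.0536, 0.105 and 0.0754, and 0.0819 without CM replicate 3. The ring subunit Atp6v0c had 117, 124 and 115 FPKM in CM + 4OI and 126, 125 and 108 FPKM in CM (adjusted p = 0.946), and its processed copy Atp6v0c-ps2 is listed at 102 FPKM, so that reads may be split between them. Atp6v0d1, the common isoform of the subunit joining both sectors, was at 67.0 ± 2.04 FPKM in CM + 4OI and 65.7 ± 1.92 FPKM in CM (adjusted p = 0.653).

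Of 7 genes of the V1 sector 2 were higher, 2 lower and 3 not called. Among all tested genes 19.3% were higher and 13.2% lower. Atp6v1a, the catalytic subunit A, had 88.5, 92.9 and 94.0 FPKM in CM + 4OI and 75.5, 78.4 and 81.2 FPKM in CM. It was 1.17-fold higher (log2 fold change 0.23, SE 0.045, limma adjusted p = 0.0101), but not called with median-of-ratios scaling (adjusted p = 0.0514) or without replicate 2 of both groups (0.0874). Its partner in the ATPase ring, subunit B (Atp6v1b2), had 72.7, 79.4 and 78.7 FPKM in CM + 4OI and 83.9, 93.8 and 93.7 FPKM in CM, 1.18-fold lower with 4OI (log2 fold change -0.23, SE 0.061, adjusted p = 0.0301). That call was lost without CM replicate 2 (0.0806) or 3 (0.0934) and without CM + 4OI replicate 1 (0.0792), 2 (0.0573) or 3 (0.0647).

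Atp6v1d, subunit D of the central rotor, had 17.8, 18.3 and 18.9 FPKM in CM + 4OI and 23.7, 23.9 and 25.2 FPKM in CM, with non-overlapping groups (log2 fold change -0.38, SE 0.044, limma adjusted p = 0.00108). Atp6v1h, the regulatory subunit H, was the least abundant of the 15 per length, at 14.2, 14.7 and 14.8 FPKM in CM + 4OI and 11.7, 11.7 and 12.0 FPKM in CM. It was higher with 4OI (log2 fold change 0.28, SE 0.040, limma adjusted p = 0.00258). Atp6v1f, subunit F, was at 58.4 ± 3.03 FPKM in CM + 4OI and 52.9 ± 0.793 FPKM in CM (adjusted p = 0.0682). It passed the threshold without CM + 4OI replicate 2 (limma adjusted p = 0.0354) and with quantile normalization (0.0105). The stator subunits Atp6v1c1 and Atp6v1e1 and the accessory proteins Atp6ap1 and Atp6ap2 had log2 fold changes of 0.03, 0.00, 0.06 and 0.02, none of them called. Quantile normalization gave Atp6ap1 a log2 fold change of 0.16 and a call (limma adjusted p = 0.0290).

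The transcription factors themselves were not called. Tfeb had 2.72, 2.54 and 3.10 FPKM in CM + 4OI and 2.95, 2.67 and 2.64 FPKM in CM, with overlapping groups (log2 fold change 0.01, SE 0.075, limma adjusted p = 0.925). Tfe3 had 15.6, 13.6 and 14.2 FPKM in CM + 4OI and 13.6, 13.3 and 12.5 FPKM in CM, with the lowest CM + 4OI culture just above the highest CM culture (log2 fold change 0.13, SE 0.062, adjusted p = 0.151). Their relatives Mitf, at 11.6 ± 0.956 FPKM in CM + 4OI and 11.3 ± 0.426 FPKM in CM, and Tfec, at 7.02 ± 0.226 FPKM in CM + 4OI and 6.89 ± 0.698 FPKM in CM, were not called either (adjusted p = 0.727 and 0.810). These factors are controlled mainly through phosphorylation and nuclear entry, which transcript levels do not measure.

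Promoters of the members were read for the elements of these factors and of NRF2, in windows from 250 bases before to 50 bases after the start (RefSeq, build GRCm38.p6), which matched 36 of the 43 members by symbol (all but Ctsb, Ctsh, Npc1, Atp6v0d2, Atp6v1b2, Atp6v1c1 and Atp6v1h). Searched on both strands, the palindromic CLEAR core TCACGTGA occurred in 7 of these 36 members (19.4%), against 1.12% of the 27025 genes with a window and 2.45% of the tested genes among them. The shorter E-box CACGTG, which lies within it, occurred in 12 members (33.3%), against 8.09% of all genes and 12.6% of tested genes. The element was described in lysosomal genes, so its frequency here is no independent finding. The stretches below carry the CLEAR core in capitals, 5′ to 3′ on the gene's strand, as the sequence that these 7 genes share, of which 5 were not called.
Ctsd (chr7:142387908-142387937): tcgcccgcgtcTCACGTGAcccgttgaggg
Ctsa (chr2:164833749-164833778): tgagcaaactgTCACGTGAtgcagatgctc
Mcoln1 (chr8:3500462-3500491): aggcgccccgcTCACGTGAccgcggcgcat
Atp6v0d1 (chr8:105566050-105566079): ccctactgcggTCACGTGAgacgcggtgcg
Atp6v1a (chr16:44139373-44139402): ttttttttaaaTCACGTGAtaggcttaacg
Atp6v0e (chr17:26676387-26676416): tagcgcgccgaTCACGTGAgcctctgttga
Gla (chrX:134601185-134601245): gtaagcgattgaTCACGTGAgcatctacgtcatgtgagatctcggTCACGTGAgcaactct
The genes of Ctsd, Atp6v0d1, Atp6v1a and Gla lie on the minus strand and the other 3 on the plus strand. A further core of Ctsa, beginning at base 5 after the start, is not shown. Of these 7 genes Atp6v1a and Atp6v0e were called higher and 0 lower, with log2 fold changes from 0.00 to 0.23 and a median of 0.09. That median is the value of Gla, which was -0.28 without CM replicate 1. Neither higher call held with median-of-ratios scaling (limma adjusted p = 0.0514 for Atp6v1a and 0.123 for Atp6v0e). The median of the 29 members without the core was 0.00, of which 4 were higher and 5 lower. Over all tested genes the median was 0.06. The difference between these medians was not tested.

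More than 1 copy of the shorter E-box occurred in Lamp1 and Atp6v0b, and also in Ctsa, Ctsd, Mcoln1 and Gla. Those of Lamp1 and Atp6v0b are in capitals in these stretches that end at the base before the start.
Lamp1 (chr8:13159091-13159160, plus strand): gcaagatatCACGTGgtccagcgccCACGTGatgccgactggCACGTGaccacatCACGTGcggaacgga
Atp6v0b (chr4:117887330-117887374, minus strand): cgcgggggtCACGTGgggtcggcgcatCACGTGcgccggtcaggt
Lamp1, with 4 copies, had a log2 fold change of 0.00 and Atp6v0b, with 2, of 0.26. For Ctsa, Ctsd, Mcoln1 and Gla it was 0.00, 0.12, 0.08 and 0.09, none of them called. The M-box TCATGTG of MITF relatives occurred in 5 members, Atp6v0c, Ctsa, Ctss, Gla and Tpp1, of which 0 were called (13.9%, against 4.31% of all genes). The core TGACNNNGC of the antioxidant response element bound by NRF2 occurred in 7 members (19.4%), against 14.0% of all genes and 17.4% of tested genes. Among them Atp6v0a1 and Atp6v1a were called higher and Ctsz lower, while Ctsd, Hexa, Psap and Tpp1 were not called. Of the 29 members without the core 4 were higher and 4 lower. Among all tested genes 19.3% were higher and 13.2% lower. Atp6v1a lost its call with median-of-ratios scaling and Ctsz with quantile normalization (limma adjusted p = 0.0514 and 0.279). The Atp6v0a1 promoter holds a pair of adjoining matches on the reverse strand, and that of Atp6v1a a single copy, in capitals here. The matches of Ctsz, Ctsd, Hexa, Psap and Tpp1 are not shown.
Atp6v0a1 (chr11:101010168-101010207, plus strand): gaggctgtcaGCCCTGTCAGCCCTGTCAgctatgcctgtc
Atp6v1a (chr16:44139286-44139314, minus strand): ccctagagcgTGACTTAGCgtcacttcct
None of the 4 motifs was found in the window of Lipa, Lamp2 or Ctsc. A match is a run of letters and not evidence of binding.

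The remaining genes of the lysosome also had calls in both directions. Of 114 tested genes on 6 further lists, 12 rose, 18 fell and 84 were not called, 26.3% against 32.5% of all tested genes. With median-of-ratios scaling 10 rose (8.77%) and 28 fell (24.6%), against 13.1% higher and 16.2% lower among all tested genes. Among 35 other hydrolases and activators 3 rose and 5 fell, 22.9% called. Creg1, a secreted lysosomal glycoprotein, had 519.9, 493 and 562 FPKM in CM + 4OI and 307, 322 and 336 FPKM in CM, a rise of similar size to that of Lipa (log2 fold change 0.70, SE 0.062, limma adjusted p = 3.62e-04). Legumain (Lgmn), an asparagine-specific protease that activates cathepsins, had 373, 372 and 370.0 FPKM in CM + 4OI and 477, 483 and 483 FPKM in CM (log2 fold change -0.37, SE 0.033, adjusted p = 3.85e-04). Ids, a sulfatase that degrades glycosaminoglycans, also fell, with a log2 fold change of -0.31 (limma adjusted p = 0.00276).

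Of 21 other membrane proteins 3 rose and 3 fell, 28.6% called against 32.5% of all tested genes. Slc29a3, a lysosomal nucleoside transporter, fell to 37.2 ± 0.870 FPKM in CM + 4OI, against 59.1 ± 1.43 FPKM in CM (log2 fold change -0.65, limma adjusted p = 8.76e-05). The phosphoinositide phosphatase Tmem55a and the cystine exporter Ctns rose, with log2 fold changes of 0.53 and 0.28. Of 13 tested genes for further pump subunits and regulators 2 rose and 2 fell, 30.8% called. The assembly factors Dmxl2 and Tmem199 rose (log2 fold change 0.43 and 0.32), and beside Tcirg1 the pump-binding protein Ncoa7 fell (log2 fold change -0.28, adjusted p = 0.0332, and 0.103 when fitted without CM + 4OI replicate 3). The adjusted p of Ncoa7 without CM replicates 1, 2 and 3 and CM + 4OI replicate 2 was 0.0512, 0.0794, 0.0633 and 0.0983. The tissue-restricted subunits Atp6v0a4, Atp6v1b1, Atp6v1e2 and Atp6v1g3 were listed at 0 in every library.

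A further list of 19 tested genes held Mitf, Tfec and genes of lysosomal nutrient sensing. Of these 5 fell and 1 rose, 26.3% and 5.26% of them, against 13.2% lower and 19.3% higher among all tested genes. Without replicate 2 of both groups 2 fell and 0 rose, against 9.67% lower and 10.4% higher. Lamtor1, which anchors the Ragulator complex to the membrane, fell to 21.6 ± 0.595 FPKM in CM + 4OI, against 28.6 ± 0.316 FPKM in CM (log2 fold change -0.39, limma adjusted p = 6.08e-04). Rragc, a Rag GTPase, fell to 62.2 ± 2.03 FPKM in CM + 4OI, against 76.4 ± 1.24 FPKM in CM, and Fnip1, a partner of folliculin, had a log2 fold change of -0.21. Rheb, the GTPase that activates mTORC1, rose to 11.4 ± 0.0360 FPKM in CM + 4OI, against 9.42 ± 0.555 FPKM in CM. Fnip1 and Rheb lost their calls without replicate 2 of both groups (adjusted p = 0.0752 and 0.0865). Among 23 genes of sorting to the lysosome 2 rose and 3 fell, 21.7% called against 32.5% of all tested genes. Sortilin (Sort1) rose 1.62-fold to 23.9 ± 2.50 FPKM in CM + 4OI, against 14.8 ± 1.48 FPKM in CM. Of the enzymes that build the mannose phosphate tag, Gnptab fell to 20.4 ± 1.45 FPKM in CM + 4OI, against 28.3 ± 2.21 FPKM in CM, and Nagpa fell to 10.2 ± 2.60 FPKM in CM + 4OI, against 17.4 ± 1.50 FPKM in CM. Gnptg, which encodes a further subunit of the enzyme of Gnptab, was not called (log2 fold change 0.05, adjusted p = 0.634). Ap3b1, of the adaptor coat that sorts cargo to lysosomes, had a log2 fold change of -0.26. Without replicate 2 of both groups Ctns, Dmxl2, Tmem199, Nagpa and Ap3b1 lost their calls too (adjusted p = 0.0588, 0.0782, 0.0553, 0.0811 and 0.0878), and 7 of the 114 genes were higher and 10 lower. Of 12 cathepsin inhibitors only 3 were tested, and Serpinb6a rose 1.62-fold, with 14.1% of its exons overlapping Nqo2 on the other strand and with related family members that can share its reads.

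**Figure D4:**
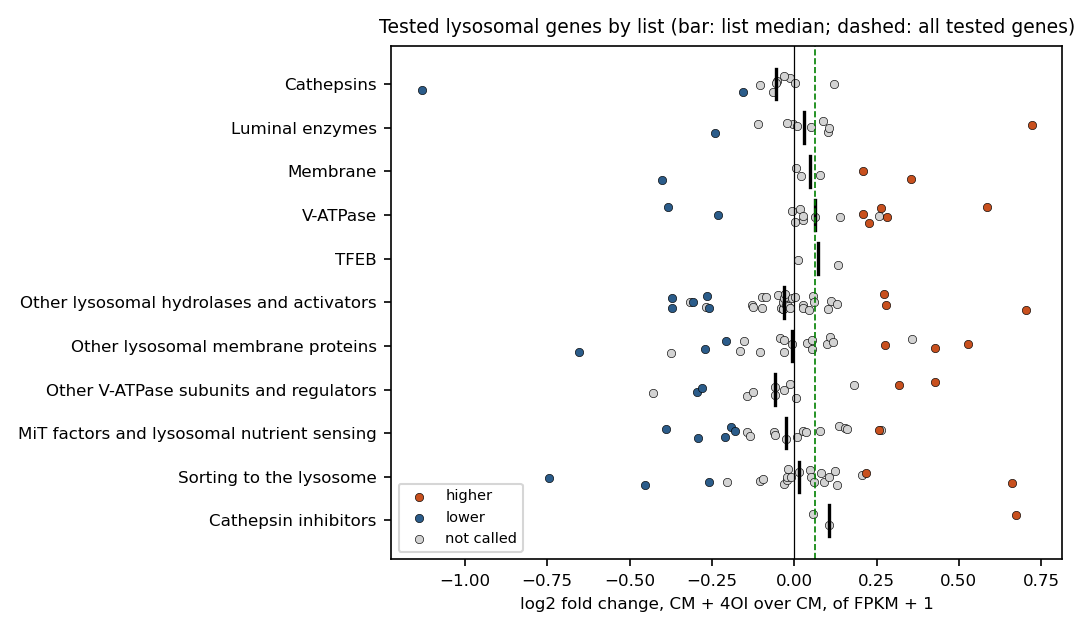
Log2 fold change of FPKM + 1, CM + 4OI over CM, of every tested lysosomal gene, 1 row per class or list, coloured by call; the bar is the list median and the dashed line the median of all tested genes, 0.06. Every class and list with at least 10 tested genes has called genes on both sides of 0, except the cathepsins, where 2 fell and 0 rose. Without replicate 2 of both groups, 0 luminal proteins were lower. In that fit 0 of the further pump genes and 0 of the MiT and nutrient-sensing genes were higher.

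Part of the spread among members followed the replicate number. Atp6v0d2, the d2 isoform of the pump, typical of osteoclasts and some macrophages, was the most abundant of the 15 pump genes, with 147, 214 and 200.3 FPKM in CM + 4OI replicates 1, 2 and 3 and 121, 179.7 and 169 FPKM in CM replicates 1, 2 and 3. Replicate 1 was the lowest in both groups, and each CM + 4OI culture was above the CM culture of the same number. The groups overlapped and the gene was not called (log2 fold change 0.26, SE 0.19, limma adjusted p = 0.354), whereas with the replicate number as a block the SE was 0.025 and the adjusted p 0.00243. Ctsk, the collagen-degrading cathepsin K of osteoclasts, was also lowest in replicate 1 of both groups, at 12.9, 18.6 and 20.3 FPKM in CM + 4OI and 14.2, 21.1 and 20.5 FPKM in CM (adjusted p = 0.736). Each CM + 4OI culture of Ctsk was below the CM culture of the same number. The block and median-of-ratios scaling together gave Ctsk a log2 fold change of -0.18 and a call (limma adjusted p = 0.0459). Osteoclast markers, of which 5 of 8 averaged at least 1 FPKM and Calcr was at or near 0, summed to 26.9, 37.6 and 36.9 FPKM in CM + 4OI and 26.5, 41.0 and 38.3 FPKM in CM, again lowest in replicate 1. Their part in the spread was not tested. Ctsl, cathepsin L, was highest in replicate 2 of both groups, like the stromal markers, at 252, 304 and 279.7 FPKM in CM + 4OI and 242, 368 and 268 FPKM in CM (adjusted p = 0.831), and the part of those cells was not tested. In all, 17 of 43 members (39.5%) were lowest in replicate 1 of both groups, against 19.6% of tested genes, and 17 were highest in replicate 3 of both groups, against 9.69%. With the block 12 members were higher and 6 lower, against 22.3% and 14.5% of tested genes, and the added higher ones were Ctsd, Psap, Hexa and Atp6v0d2. Of these 4 Atp6v0d2 alone was still called when median-of-ratios scaling was added to the block (log2 fold change 0.18, adjusted p = 0.00586).

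**Figure D5:**
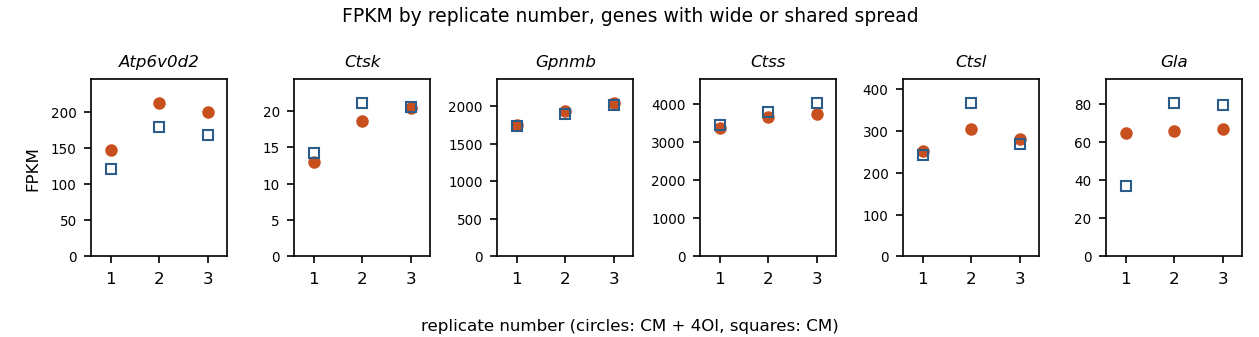
FPKM by replicate number for 6 members with a wide spread or a shared order, filled circles for CM + 4OI and open squares for CM, each axis from 0. Atp6v0d2 and Ctsk are lowest in replicate 1 of both groups, Ctsl highest in replicate 2, and for Gla the CM culture of replicate 1 stands alone at 36.9 FPKM.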

How the data were processed

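RNA of 6 macrophage cultures was sequenced as 150 nt paired-end reads, per the labels' protocols. The authors deposited FPKM per gene and sample. Build mm10 and FastQC 0.11.2 come from the submitters' processing notes, and for the aligner, quantifier, annotation and strand setting no source used here gives a name. GENCODE M21 (GRCm38, the assembly of mm10) holds 99.7% of the gene IDs and supplied coordinates and exon overlaps. Depth was estimated from the most common FPKM times length at low values over single-transcript genes of at least 500 nt. CM + 4OI was compared with CM in R 4.3.3 by limma 3.58.1 with a trended prior variance, on log2(FPKM + 1) of 10468 genes whose mean reached 1 FPKM, two-sided, with Benjamini-Hochberg adjustment over all of them. Fold changes on this scale understate changes of low genes; ratios are of mean FPKM. All 43 members passed the filter. Full values are given for called members at or beyond 0.3 on the log2 scale, the 2 most abundant of each class and Tfeb and Tfe3, and, chosen after values were seen, for other called members and those with wide spread; further lists give up to 4 called genes each, of which some are not reported here. Members and lists were chosen with earlier results of these data known. The main fit had no block, so its calls are unpaired. The residuals of CM + 4OI and CM samples with the same number were correlated (r = 0.344 for number 1, 0.427 for 2 and 0.185 for 3, each above 0.1). The replicate number was also fitted as a block, among the alternatives, although what it marks is unlabelled. The fit was tested on simulated data. Python 3.11.15, pandas 2.3.3 and matplotlib 3.10.9 were used.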

Additional observations from a re-analysis of the deposited data

How the results depend on the processing

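The comparison was repeated under 15 alternatives, of which median-of-ratios scaling with the replicate block together was chosen after seeing the data. Over the fits that leave out 1 library, members higher numbered 5 to 7 and lower 4 to 6, against 8 and 6 with all; the other lysosomal genes 10 to 12 and 14 to 17, against 12 and 18; and all genes 1311 to 1855 higher and 1148 to 1246 lower, against 2020 and 1385. The lowest number of higher genes, 1311, came without CM + 4OI replicate 2, and of higher members, 5, without CM + 4OI replicate 3. Without replicate 2 of both groups 4 members were higher and 3 lower, 7 and 10 other lysosomal genes, and 1089 genes were higher. Once libraries were rescaled by median of ratios, members had 4 upward and 7 downward calls, and the other lysosomal genes 10 and 28. Over all 10468 tested genes the upward and downward calls then numbered 1371 and 1696. Adding the replicate block to this scaling left 8 members called upward and 10 downward. In that fit the other lysosomal genes had 10 upward and 30 downward calls, and all tested genes 1529 and 1920. The replicate block alone gave 12 higher and 6 lower members and changed no member's call beside Ctsd, Psap, Hexa and Atp6v0d2. Where either value was called, the sign turned in 2 cases among the members. Ctsz was at 0.065 under quantile normalization (adjusted p = 0.279), and Gla ran from -0.28 without CM replicate 1 to 0.28 without CM replicate 2. Of the 29 members not called, 21 changed sign in at least 1 alternative, and 18 were called in none. The cause of these shifts was not tested. With 3 cultures a group, and FPKM without counts, small differences among these abundant genes rest on 6 values each.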
